A study of Mus musculus with 32 samples.

Results

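The response of E2f1 knockout liver to bacterial lipopolysaccharide (LPS) at 6 h was measured on 10 of the 32 one-colour arrays of the study, each hybridised with liver RNA of 1 mouse. The members were chosen by their titles: 4 arrays of knockout mice given LPS systemically and collected at 6 h (KO LPS 6 h) and 6 arrays of knockout mice given saline (KO saline). Both groups carry the E2F1-/- genotype under a strain label that joins B6, 129 and E2F1-/-, and the saline mice are labelled as collected at 20 h, so the groups differ in time after treatment as well as in LPS. The same contrast in E2F1+/+ mice, labelled B6x126 F2, had 4 LPS arrays at 6 h (WT LPS 6 h) and 6 saline arrays at 20 h (WT saline). The other 12 arrays, of LPS at 20 h, entered only the choice of probes and the shared estimate of the spread. The age and sex of the mice, the dose and route of LPS, the part of E2f1 that was deleted and whether the wild-type mice were littermates are not given in the sources used here.

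LPS, the endotoxin on the surface of Gram-negative bacteria, is bound by LPS-binding protein and CD14 and sensed by TLR4 with MD-2. The receptor signals through MyD88 to NF-kB and MAP kinases and through TRIF to IRF3 and type I interferon, so that cytokine, chemokine and interferon-stimulated genes rise within hours. In the liver, Kupffer cells and sinusoidal endothelium sense LPS directly, and hepatocytes answer the resulting IL-6 and IL-1 with the acute-phase response while lowering bile acid, drug and lipid metabolism. E2F1 is a transcription factor of the G1/S transition that is held in check by the retinoblastoma protein, and it has also been tied to NF-kB target genes.

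Levels are log2 signals from which the 75th percentile of the array was subtracted, so a level of 0 is the brightness of the upper-quartile probe and levels of different genes cannot be set against each other. Changes are log2 differences of LPS minus saline with the standard error of the limma fit, and genes were called where the limma p, adjusted by Benjamini-Hochberg over 19204 tested gene names, was under 0.05. The labels name the arrays of a group as separate mice and nothing further, so the p-values measure only the spread between arrays within groups. That spread was estimated over all 6 groups of the series and not from the knockout arrays alone.

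Tissue identity and the targeted gene were checked first, since the extraction protocol in the labels speaks of lung tissue while every other label says liver. Albumin (Alb), the main secreted protein of hepatocytes, lay between 9.71 and 11.23 on all 10 knockout arrays. Of 11 listed lung epithelial genes, Sftpb, Sftpc and Nkx2-1 were well above background on 0 of the 32 arrays. Another 5 (Sftpa1, Sftpd, Scgb1a1, Scgb3a2 and Aqp5) were bright enough on some arrays to be tested. E2f1 itself was read by 2 probes at its 3′ end, at chr2:154386004-154386063 and chr2:154385742-154385801 (mm9). The level of E2f1 was -2.17, -1.65 and -3.01 in KO LPS 6 h replicates 2 to 4 and -4.55 to -2.56 (median -3.35) in KO saline replicates 2 to 6, and the 4 WT LPS 6 h arrays lay between -4.28 and -3.27. These levels are from the brighter probe, the first of the 2. Knockout levels were thus not below wild-type levels at this probe, and with the deleted part unknown it checks nothing about the labels. The change of E2f1 with LPS in the knockout was 1.12 ± 0.71 (limma adjusted p = 0.266), and the WT saline arrays spanned -5.04 to -2.29.

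Before any comparison, 2 knockout libraries stood apart from the groups their labels name. Each array was placed on the wild-type 6 h response, over 6084 genes called in wild type, with 0 at the mean of WT saline and 1 at the mean of WT LPS 6 h. A score of 0.902 was found for the library labelled KO saline replicate 1, while the other 5 KO saline arrays lay between -0.0035 and 0.0567. The library labelled KO LPS 6 h replicate 1 had a score of 0.1246, while the other 3 KO LPS 6 h arrays lay between 0.9061 and 0.9869. Both libraries were hybridised on the same slide and scanned on the same day. The labels were kept as given, and each comparison was fitted with these libraries (4 LPS against 6 saline arrays) and without them (3 against 5). A knockout change given without naming a fit is from 3 against 5 arrays. The choice to leave the 2 libraries out was made from their values.

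**Figure D1:**
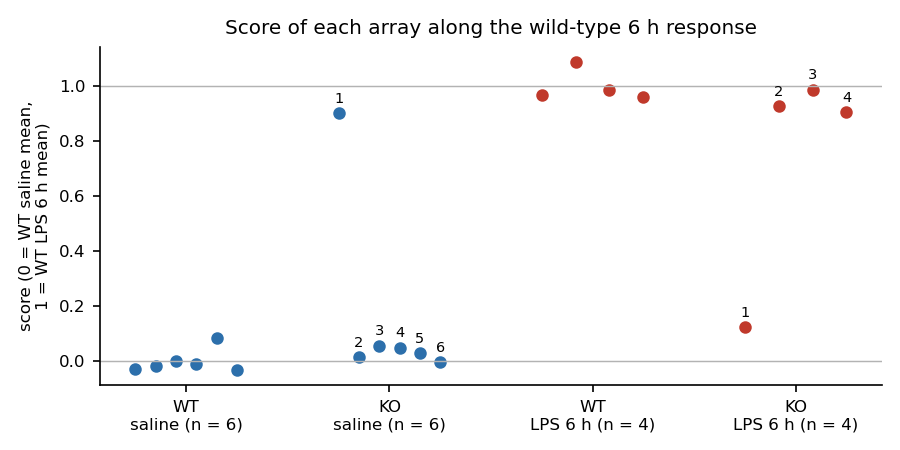
Score of each of 20 arrays along the wild-type 6 h response (y axis, no unit; 0 is the mean of WT saline and 1 the mean of WT LPS 6 h), with 1 point per array and the groups on the x axis. The library labelled KO saline replicate 1 sits at 0.902 among the LPS arrays, and the library labelled KO LPS 6 h replicate 1 at 0.1246 near the saline arrays.

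In a principal component analysis of the 10 knockout arrays, the first component held 58.3% of the variance. On it the library labelled KO saline replicate 1 lay at -109.3, beside KO LPS 6 h replicates 2 to 4 at -103.5, -114.8 and -100.8, and the library labelled KO LPS 6 h replicate 1 lay at 56.98, beside the other saline arrays at 71.4 to 79.8. The 2 libraries were not exact counterparts of the opposite groups. Over the 5596 genes called in 3 against 5 arrays, with 0 at the mean of the 5 saline arrays and 1 at the mean of the 3 LPS arrays, the library labelled KO saline replicate 1 had a median position of 0.96 and the library labelled KO LPS 6 h replicate 1 one of 0.05. The latter lay beyond all 5 saline arrays in the direction of LPS for 1307 of these genes (23.4%), among them 8 of 13 called CC chemokines, 9 of 15 called immediate early genes, 9 of 18 called neutrophil markers and 5 of 6 called coagulation genes. These lists had high shares. The counts were 0 of 9 called T and NK cell markers, 0 of 9 called hepatocyte identity genes, 2 of 17 called sinusoidal genes and 2 of 15 called MHC class I genes. How often a further saline array would lie beyond 5 others was not measured, so the 23.4% has no reference share. For MHC class II the median positions were 0.51 and 0.34, and for cholesterol synthesis the library labelled KO saline replicate 1 lay at 1.51. Cholangiocyte markers also set it apart, with a median level of 1.71 over the list against -2.44 to -0.91 on the other saline arrays and -1.03 on the library labelled KO LPS 6 h replicate 1. The 5 tested lung epithelial markers did too, with a median level of -0.67 against -4.57 to -3.48 on the other saline arrays. On the library labelled KO LPS 6 h replicate 1 their median level was -3.01.

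**Figure D2:**
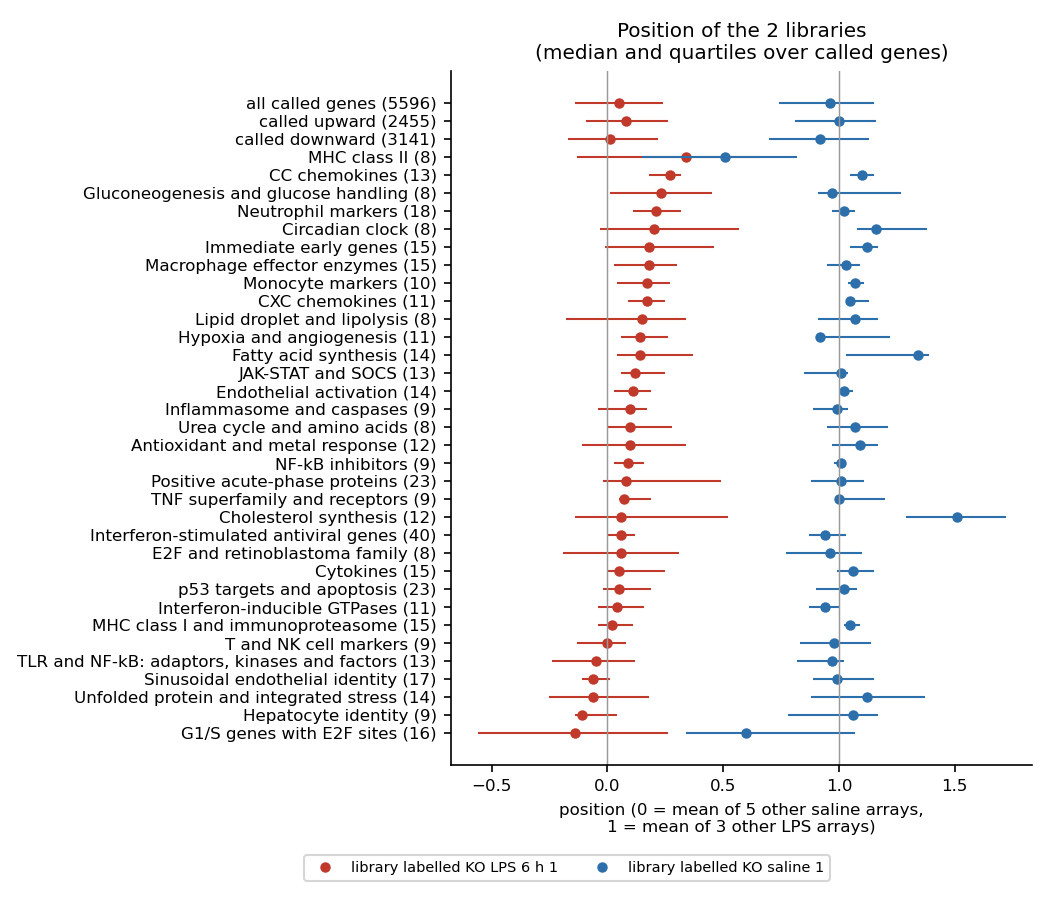
Position of the 2 libraries (x axis, no unit; 0 is the mean of the 5 other KO saline arrays, 1 the mean of the 3 other KO LPS 6 h arrays) for each gene list (y axis, number of called genes in parentheses), as median with quartiles over the called genes. The library labelled KO saline replicate 1 lies near 1 and the library labelled KO LPS 6 h replicate 1 near 0 for most lists, with medians of 0.51 and 0.34 for MHC class II.

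The 10 knockout arrays had 20203 to 27536 spots well above background, and the 75th percentile of their signal ran from 280.9 in the library labelled KO saline replicate 1, the lowest, to 835.9. Within the 3 LPS arrays log2 values correlated at 0.968 to 0.983 across probes, and within the 5 saline arrays at 0.959 to 0.981.

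With labels as given, 499 genes (2.6%) were called by limma, 297 higher (1.55%) and 202 lower (1.05%) after LPS, and 4117 had an unadjusted p under 0.05. Without the 2 libraries, 5596 genes (29.1%) were called, 2455 higher (12.8%) and 3141 lower (16.4%), with 7295 at an unadjusted p under 0.05. Leaving out single arrays from the fit as labelled gave 3544 genes without the library labelled KO saline replicate 1, 3895 without the library labelled KO LPS 6 h replicate 1, and 0 to 2 without any 1 of the other 8. All 499 genes were among the 5596, in the same direction. The 2 arms of 3 LPS and 5 saline arrays did not overlap for 2936 genes above (15.3%) and 4001 below saline (20.9%), and with all 10 arrays for 78 above (0.408%) and 92 below (0.481%). The share of higher genes among those called depended on the scaling: it was 43.9% here and 56.5% with each array centred on its median (59.5% and 81.6% with labels as given), and that centring moved the median change of all genes from -0.03 to 0.16. Within scan day 1 (1 LPS and 2 saline arrays) 2573 genes were called and within scan day 2 (2 and 2) 3388, neither of which held the 2 libraries. In wild type, 6174 genes (32.1%) were called in the fit of the same 30 arrays. The rises shared by both genotypes numbered 1801, which is 73.4% of the knockout and 66.3% of the wild-type rises, and the shared falls numbered 2214, or 70.5% and 64.1%. In bulk tissue, fewer cells of a type and less RNA per cell cannot be told apart, which holds for every change reported here.

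**Figure D3:**
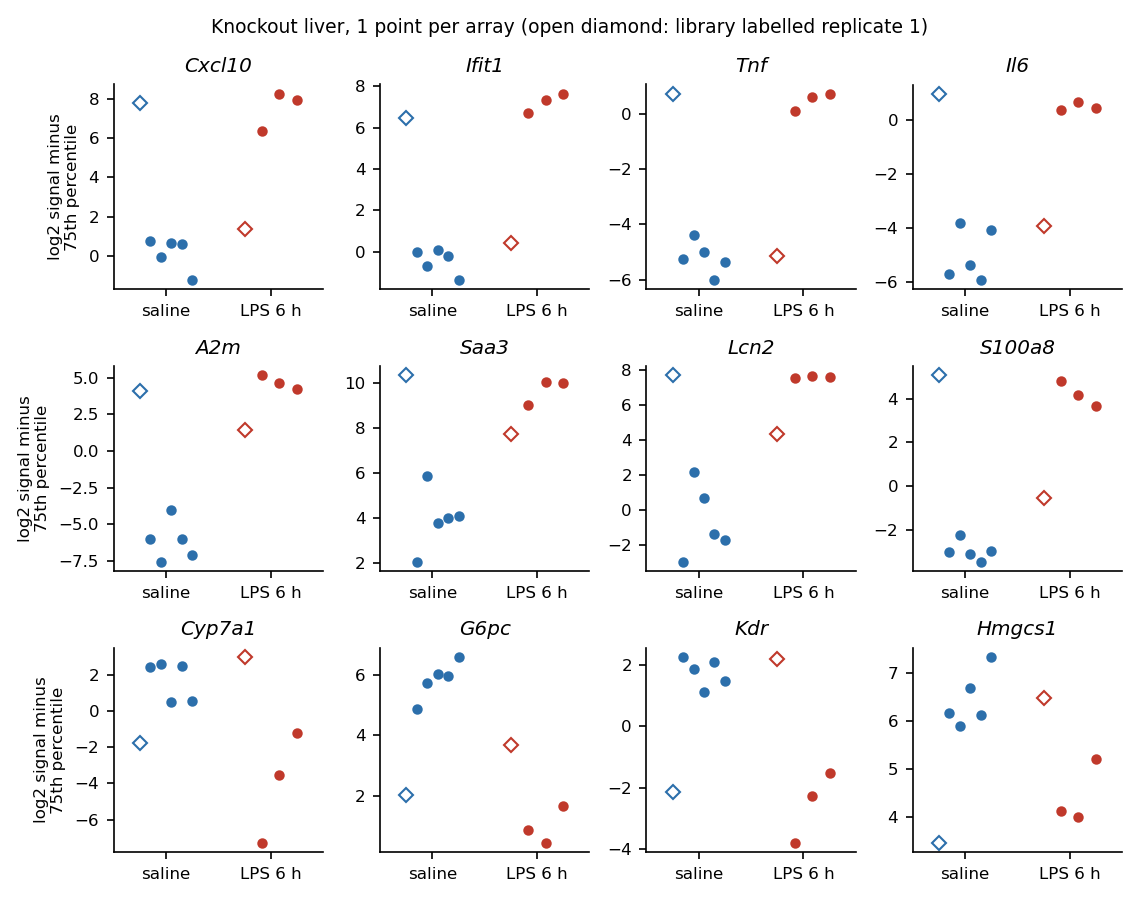
Levels (y axes, log2 signal relative to the 75th percentile of its array) of 12 genes in knockout liver, 1 point per array, saline in blue and LPS 6 h in red, with the libraries labelled replicate 1 as open diamonds. In all 12 panels the 3 filled LPS points lie clear of the 5 filled saline points, and for Cxcl10 the diamond of the saline group, at 7.76, lies among the LPS points.

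The gene lists held 1054 names, of which 994 were tested. Some genes are in several lists, so the counts of different lists are not independent. Lcn2 is in the positive acute-phase, neutrophil and endothelial activation lists, and Ch25h in the macrophage and endothelial activation lists. Fas is in the TNF superfamily and endothelial activation lists, and Cd14 in the receptor and monocyte lists. List counts are from 3 against 5 arrays, to be read against the 12.8% of all genes that rose and the 16.4% that fell. Counts as labelled, where given, are to be read against 1.55% and 1.05%. As labelled, no member of the B cell, lung epithelial, negative acute-phase, fatty acid oxidation, cytochrome P450 or phase II lists was called. The same held for the urea cycle and amino acid, hepatocyte identity, clock, G2/M and growth hormone lists. Also as labelled, the stellate list had 1 rise and 1 fall, the lipid droplet list 1 fall and the hypoxia list 1 rise. The median change over all genes was -0.03 in both fits. Genes picked for the largest change had to be called in both fits, which favours genes that were also high in the library labelled KO LPS 6 h replicate 1 or low in it.

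**Figure D4:**
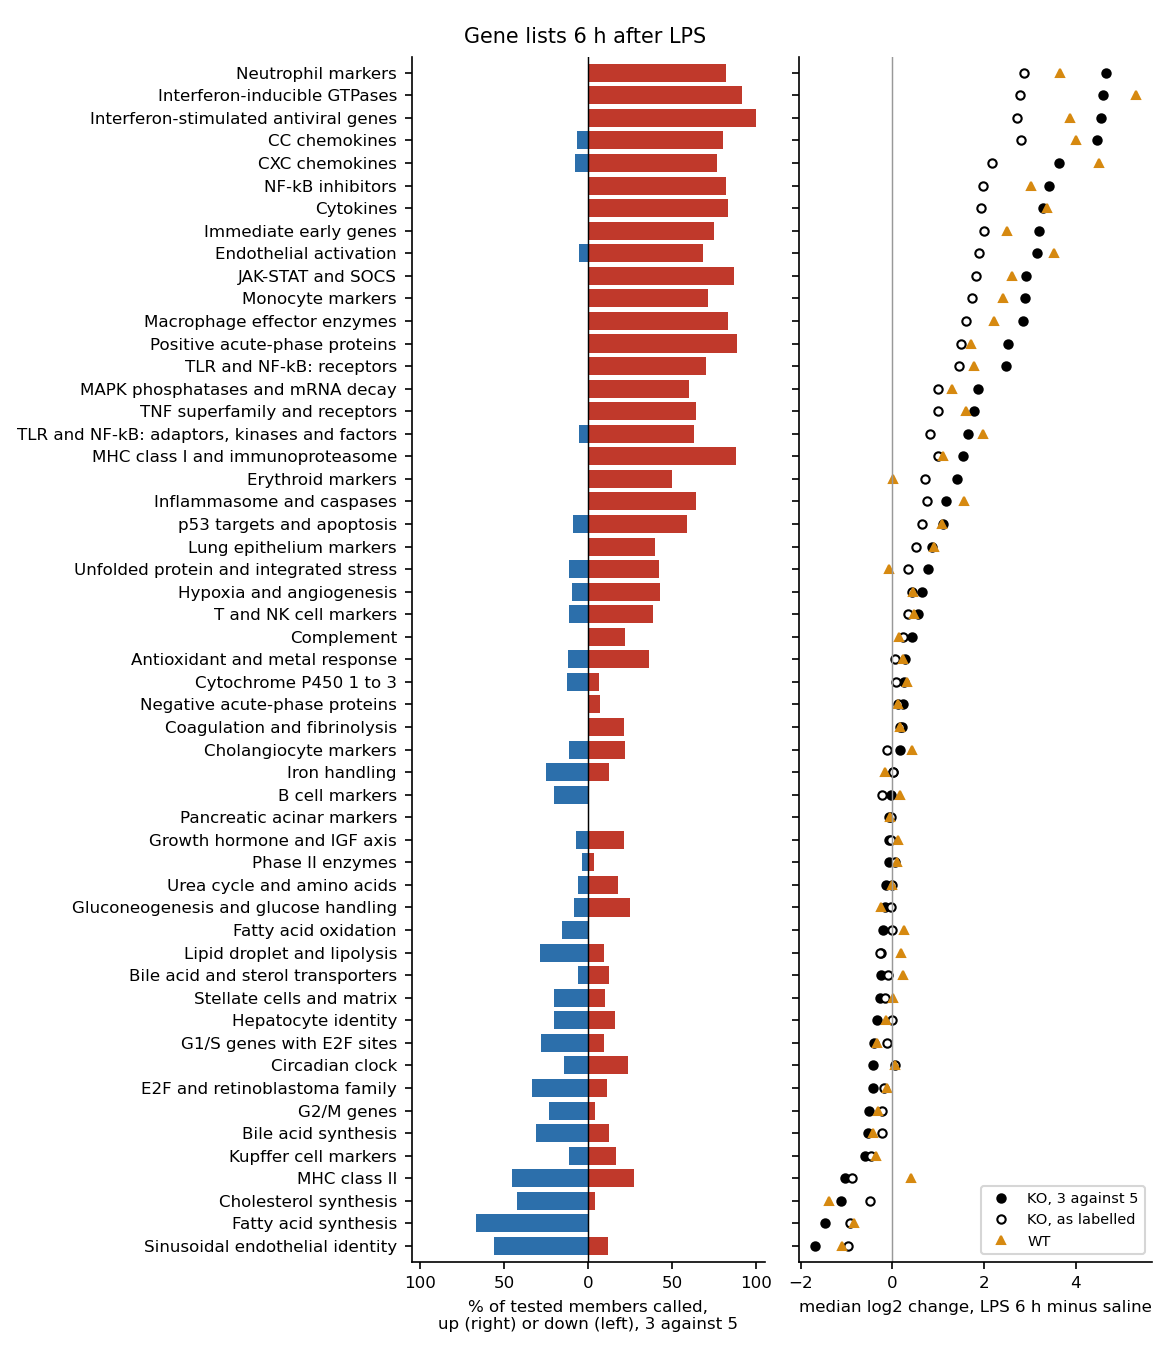
Left, percentage of the tested members of each gene list called higher (red, to the right) or lower (blue, to the left) 6 h after LPS in 3 against 5 knockout arrays. Right, median log2 change of each list (x axis, LPS minus saline) in 3 against 5 knockout arrays (filled circles), in the knockout arrays as labelled (open circles) and in wild type (triangles); neutrophil markers reached 4.67 and interferon-stimulated antiviral genes 4.56 in the filled circles, and sinusoidal endothelial genes -1.69.

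LPS sensing genes rose in the knockout liver. Of 10 receptor and co-receptor genes, 7 rose and 0 fell, with a median change of 2.48, and as labelled 2 rose and 0 fell with a median of 1.46. Cd14, the co-receptor that hands LPS to TLR4, stood at 6.75, 6.79 and 6.70 in KO LPS 6 h replicates 2 to 4 and at -1.36 to -0.04 (median -0.85) in the 5 saline arrays. The libraries labelled replicate 1 of each group had Cd14 levels of 2.93 (LPS) and 6.20 (saline). The 3 and 5 values did not overlap, and Cd14 rose by 7.58 ± 0.97, or 191.0-fold (limma adjusted p = 8.33e-07), against 5.45 as labelled (adjusted p = 0.0394). Tlr2, the receptor for bacterial lipoproteins, rose by 6.51 ± 0.56 (adjusted p = 1.66e-09), and Lbp, the secreted LPS-binding protein, by 3.32 ± 0.40 (adjusted p = 3.22e-07). Tlr9, which senses CpG DNA, was not called (-0.54 ± 0.32, adjusted p = 0.229). Of 19 adaptors, kinases and transcription factors downstream, 12 rose and 1 fell (as labelled 0 and 1). Among them were the adaptor Myd88 (3.37), the kinases Map3k8 (3.43) and Ripk2 (3.40), and Nfkbiz (5.34), a nuclear IkB protein that promotes secondary response genes. Irf3 was not called by its brightest probe (-0.25, adjusted p = 0.68), and its other probe gave -1.36. Inhibitors of the pathway rose as well, 9 of 11 with a median of 3.42 (as labelled 3, median 1.98). They included the deubiquitinase Tnfaip3 (A20; 6.49), the pseudokinase Irak3 (5.64), the ribonuclease Zc3h12a (4.63) and Bcl3 (3.64), and the brightest member not called was Tollip (0.45, adjusted p = 0.216).

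Chemokine and cytokine transcripts gave some of the widest gaps between saline and LPS arrays. Of 13 CXC chemokines 10 rose and 1 fell (median 3.63; as labelled 3 rose, median 2.17), of 15 CC chemokines 12 rose and 1 fell (median 4.46; as labelled 6, median 2.82), and of 18 cytokines 15 rose (median 3.28; as labelled 3, median 1.94). Cxcl10, an interferon-induced chemokine for CXCR3 on T and NK cells, had levels of 6.33, 8.24 and 7.92 in the 3 LPS arrays and -1.22 to 0.76 (median 0.61) in the 5 saline arrays. The change of Cxcl10 was 7.34 ± 0.88, or 162.0-fold (limma adjusted p = 3.22e-07), but as labelled it was 4.55 with an adjusted p of 0.0505 and so not called, since the library labelled KO saline replicate 1 stood at 7.76 and the library labelled KO LPS 6 h replicate 1 at 1.40. Cxcl1, a ligand of CXCR2 on neutrophils, stood at 5.97, 6.77 and 7.03 after LPS and at -1.96 to 1.18 (median 0.14) after saline, 111.0-fold higher (adjusted p = 5.32e-06; as labelled 4.16, adjusted p = 0.0674). Cxcl5, another CXCR2 ligand, was well above background on 0 of the 5 saline arrays and was at least 36.8-fold higher in the 3 LPS arrays, a bound set by the dimmest measurable probes of the saline arrays. The brightest CXC chemokine not called was Cxcl14 (2.09 ± 0.83, adjusted p = 0.0585).

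Ccl3, which attracts macrophages and other leukocytes through chemokine receptors, was 3.19, 2.89 and 2.54 in the 3 LPS arrays. It was -7.14 to -5.15 (median -5.59) in the 5 saline arrays, none of them well above background, so that the rise was at least 180.0-fold (limma adjusted p = 2.12e-09). Ccl2, the main ligand of CCR2 on monocytes, rose by 8.26 ± 0.93, Ccl4 by 7.39 ± 0.43 and Ccl5 by 5.97 ± 0.50, each with 3 and 5 values that did not overlap. As labelled the changes of these 3 chemokines were 5.27 (adjusted p = 0.0465), 4.49 (0.0451) and 3.75 (0.0451). Tnf, the early macrophage cytokine, stood at 0.12, 0.64 and 0.73 after LPS and -6.02 to -4.38 (median -5.24) after saline, where 1 of 5 arrays was well above background (5.70 ± 0.44, adjusted p = 6.43e-10; as labelled 3.30, 0.0529). Il6, the main inducer of the hepatic acute-phase response, stood at 0.37, 0.67 and 0.45 and -5.94 to -3.80 (median -5.39) (5.49 ± 0.57, adjusted p = 3.25e-08; as labelled 3.38, 0.0484). Il1b stood at 3.91, 4.30 and 3.98 and -1.50 to -1.11 (median -1.30) (5.38 ± 0.42, adjusted p = 7.02e-10; as labelled 3.07, 0.0586). For Tnf and Il1b the library labelled KO LPS 6 h replicate 1, at -5.16 and -1.36, lay inside the range of the 5 saline arrays, and for Il6, at -3.93, it did too. Il1rn, the IL-1 receptor antagonist, rose by 7.79 ± 0.97, Ifng by 7.44 ± 1.33 and the neutrophil growth factor Csf3 at least 37.7-fold, while Il18 was not called (0.24, adjusted p = 0.614).

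Interferon-stimulated genes rose without exception among those tested in 3 against 5 arrays. All 40 antiviral genes of the list were called higher (median 4.56), and as labelled 21 were (median 2.72). Ifit1, which binds foreign RNA lacking a methylated cap, stood at 6.73, 7.36 and 7.64 in the 3 LPS arrays and at -1.38 to 0.06 (median -0.22) in the 5 saline arrays, with the libraries labelled replicate 1 at 0.42 (LPS) and 6.45 (saline). The groups of 3 and 5 did not overlap and Ifit1 was 208.0-fold higher (limma adjusted p = 3.44e-09; as labelled 4.84, 0.045). Ifit2 (8.29 ± 0.69), the antiviral radical-SAM enzyme Rsad2 (7.75 ± 0.93) and the GTPase Mx1 (7.45 ± 1.01) rose as well. Of 12 interferon-inducible GTPases, which attack the vacuoles of intracellular pathogens, 11 rose (median 4.59), and as labelled 4 did (median 2.78). Gbp5 stood at 3.87, 4.65 and 5.10 against -3.69 to -2.36 (median -2.91) (7.47 ± 0.72, adjusted p = 1.04e-08; as labelled 4.75, 0.045), Gbp2 changed by 7.10, Gbp3 by 5.39 and Tgtp (now Tgtp1) by 5.43. The exception was the probe named Gbp1 (now Gbp2b), with -1.95 ± 1.72 in the knockout (adjusted p = 0.444) and 5.48 in wild type, and 1 of the 3 LPS arrays measured it well above background; guanylate-binding proteins are near-identical paralogs, so single probes of this family are uncertain.

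The promoters of these genes are shown because the letters of the interferon-stimulated response element (ISRE), which are GAAA, any 2 letters and GAAA again on either strand, recur in them. Sequences are those of RefSeq on GRCm38.p6, 250 bases before the start of each gene, written 5′ to 3′ on the strand of the gene, and capitals mark the match. The promoter of Ifit1 (chr19:34640639-34640888, plus strand) holds 2 matches within 104 bases of the start:
Ifit1: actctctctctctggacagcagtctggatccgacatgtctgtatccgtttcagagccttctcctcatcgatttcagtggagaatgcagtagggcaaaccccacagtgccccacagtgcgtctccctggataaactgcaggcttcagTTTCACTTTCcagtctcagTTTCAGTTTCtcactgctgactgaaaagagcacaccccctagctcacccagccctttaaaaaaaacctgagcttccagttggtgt
All 9 interferon-inducible GTPases with a RefSeq promoter held a match. Only the match nearest the start is in capitals here. It is shown with the 10 bases on either side and the distance of its first base before the start, and the chemokine Cxcl10 follows the GTPases:
Gbp2, 59 bases before the start, chr3:142620594-142620623: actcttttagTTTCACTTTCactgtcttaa
Gbp3, 39 bases, chr3:142559995-142560024: acagtttcagTTTCTATTTCccagatccct
Gbp5, 165 bases, chr3:142496759-142496788: acttgtgtagTTTCAATTTCagtttagaga
Gbp7 (array name Gbp6), 53 bases, chr3:142530273-142530302: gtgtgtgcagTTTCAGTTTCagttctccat
Gbp2b (array name Gbp1), 137 bases, chr3:142594700-142594729: gtacttctaaTTTCACTTTCttctttatca
Igtp, 34 bases, chr11:58199512-58199541: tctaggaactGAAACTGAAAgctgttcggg
Irgm1, minus strand, 24 bases, chr11:48871425-48871454: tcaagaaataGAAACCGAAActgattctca
Irgm2 (array name Iigp2), 64 bases, chr11:58214903-58214932: tccaggaactGAAACTGAAAgctgttcggg
Tgtp1, minus strand, 77 bases, chr11:48992304-48992333: tccaggaatcGAAACTGAAAcctacctgac
Cxcl10, minus strand, 213 bases, chr5:92349083-92349112: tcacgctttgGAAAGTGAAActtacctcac
All 5 Gbp matches in capitals read on the opposite strand, as TTTC, 2 letters and TTTC, and the Igtp and Irgm2 windows differ at 1 letter. Gbp3 and Irgm1 each held 2 matches, and the one further from the start overlaps the one in capitals. Genes not marked as minus lie on the plus strand. A match was found in 424 of 12392 promoters of tested genes (3.42%), in 115 of 1748 of genes called higher (6.58%), in 49 of 2081 of genes called lower (2.35%) and in 10 of 29 of the antiviral list (34.5%). Gbp2b held the motif although its probe was not called, and a match is a description of letters, not of a bound site.

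The NF-kB letters, GGGA and TTTCC with any 1 letter between them or GGGAATTCC, on either strand, were rarer, in 90 of 12392 promoters (0.726%), 20 of 1748 of higher genes (1.14%), 15 of 2081 of lower genes (0.721%) and 3 of 10 CXC chemokines (30%). Motifs were searched one by one, so matches of different motifs may share bases. The promoter of Cxcl1 (chr5:90890995-90891244, plus strand) and the window of Il6 (chr5:30013060-30013089, plus strand) show the matches 71 and 44 bases before the start of genes that rose 111.0-fold and 44.8-fold in the 3 against 5 arrays:
Cxcl1: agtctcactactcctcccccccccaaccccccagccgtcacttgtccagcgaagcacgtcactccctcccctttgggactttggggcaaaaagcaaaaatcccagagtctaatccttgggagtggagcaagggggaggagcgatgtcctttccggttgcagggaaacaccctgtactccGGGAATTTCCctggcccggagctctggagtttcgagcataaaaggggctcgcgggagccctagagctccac
Il6: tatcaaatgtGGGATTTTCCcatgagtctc

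Signal transducers and feedback inhibitors of cytokine receptors rose with their ligands. Of 15 JAK-STAT and SOCS genes 13 rose and 0 fell (median 2.92; as labelled 5, median 1.82). Socs3, the inhibitor of gp130 signalling, stood at 7.65, 7.44 and 7.49 in the 3 LPS arrays and 0.82 to 3.45 (median 1.74) in the 5 saline arrays (5.72 ± 0.62, limma adjusted p = 7.8e-08; as labelled 3.84, 0.045). Socs1, which inhibits interferon receptors, rose by 7.56 ± 1.05, Socs2 by 3.69 ± 0.88 and the acute-phase transcription factor Cebpd by 4.76 ± 0.49. Stat5a was not called (-0.53, adjusted p = 0.185), with a change of 1.14 in wild type and an adjusted p of 0.0669 for the difference between genotypes. Immediate early genes were higher at 6 h, 15 of 20 risen (median 3.20; as labelled 5, median 2.01), with Ier3 at 7.59 ± 0.96, Atf3 at 5.48 ± 0.75, Maff at 5.20 ± 0.68 and Egr2 at 4.93 ± 0.62. The brightest member not called was Klf2 (0.35, adjusted p = 0.627), whose other probe gave 2.54, so its probes disagree. Of 10 MAP kinase phosphatases and mRNA decay factors 6 rose (as labelled 1), among them Dusp2 (5.41), Dusp8 (4.66) and Zfp36 (2.76), the tristetraprolin that destabilises Tnf mRNA.

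Genes of activated macrophages rose, 15 of 18 (median 2.85; as labelled 6, median 1.61). Irg1 (now Acod1), the enzyme that makes itaconate, stood at 4.31, 4.79 and 4.37 in the 3 LPS arrays and -6.37 to -3.75 (median -4.07) in the 5 saline arrays, of which 3 were well above background. The rise was 9.0 ± 0.86, or 512.0-fold (limma adjusted p = 8.78e-09; as labelled 5.83, 0.045), and the library labelled KO LPS 6 h replicate 1 lay at -1.97, above all 5 saline arrays. Ch25h, which makes 25-hydroxycholesterol, stood at 3.40, 4.15 and 4.38 against -5.25 to -4.25 (median -4.63) (8.66 ± 0.85, adjusted p = 1.44e-08; as labelled 5.97, 0.0394). The histamine-forming enzyme Hdc rose by 5.23 ± 0.37 and the prostaglandin synthase Ptgs2 at least 7.94-fold, with 0 of 5 saline arrays well above background. Of 14 inflammasome and caspase genes 9 rose (as labelled 2), led by the decoy receptor Il1r2 (7.58), Casp4, the mouse caspase-11 that binds cytosolic LPS (4.49), Il1r1 (4.15) and Nod2 (2.84). Of 14 TNF superfamily members and receptors 9 rose (as labelled 2), among them Cd40 (5.71), Tnfrsf9 (at least 14.5-fold), Fas (3.35) and Tnfrsf1b (3.60 with 1 probe and 0.76 with the other).

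Acute-phase genes rose, and hepatocytes secrete the products of most of them, though not all, into the blood in inflammation. Of 26 positive acute-phase genes 23 rose and 0 fell (median 2.53), and as labelled 11 rose (median 1.50). A2m, a protease inhibitor of plasma (probe at chr6:121624853-121624912, mm9), had the largest rise among the genes called in both fits. The levels of A2m were 5.17, 4.67 and 4.23 in the 3 LPS arrays and -7.53 to -4.03 (median -5.97) in the 5 saline arrays. They were 1.47 in the library labelled KO LPS 6 h replicate 1 and 4.07 in the library labelled KO saline replicate 1. A2m was well above background with this probe on 4 of the 8 arrays, the 3 LPS arrays among them, so most of its saline levels were not. Its change was 10.81 ± 1.38 (limma adjusted p = 8.02e-07), 8.31 as labelled (adjusted p = 0.0394) and 4.96 in wild type, with an adjusted p of 0.232 for the difference, and its other probe gave 5.31. Saa3, a serum amyloid A made by macrophages and hepatocytes, stood at 9.04, 10.03 and 9.98 against 2.05 to 5.84 (median 3.99), 53.2-fold higher (adjusted p = 6.41e-07; as labelled 4.18, 0.0445). With a Saa3 level of 7.74, the library labelled KO LPS 6 h replicate 1 lay above all 5 saline arrays and below the 3 LPS arrays. The liver form Saa1 was already at 4.87 to 8.32 (median 6.61) after saline and stood at 9.78, 10.64 and 10.75 after LPS (3.83 ± 0.67, adjusted p = 6.23e-05; as labelled 2.84, 0.0472); Saa1 has a near-identical copy, so its probe may read both. Lcn2, which binds bacterial siderophores, stood at 7.55, 7.69 and 7.59 against -2.98 to 2.15 (median -1.37) (8.26 ± 1.0, adjusted p = 3.52e-07; as labelled 6.05, 0.0394). Reg3b, an antibacterial lectin, was 2.78, 2.22 and 2.12 against -7.80 to -5.68 (median -6.67), at least 129.0-fold higher, and its highest value among the LPS arrays was 3.68 in the library labelled replicate 1.

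The metallothioneins Mt2 (8.96, 10.15 and 10.38 against -0.31 to 7.78 (median 2.91)) and Mt1 rose by 6.59 ± 1.06 and 6.52 ± 0.99 and the 5 saline arrays of Mt2 were widely spread. Negative acute-phase genes, the plasma proteins that are classically lowered, were hardly called: 1 of 14 rose (Fetub, 1.12 ± 0.20, adjusted p = 9.69e-05), 0 fell, and the median of 0.23 was -0.24 under quantile normalization. Alb stood at 9.74, 10.60 and 10.73 in the 3 LPS arrays and 9.71 to 10.46 (median 9.92) in the 5 saline arrays, which overlapped (0.38 ± 0.27, adjusted p = 0.315).

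Genes of iron, complement and clotting changed in part. Of 16 iron-handling genes 2 rose and 4 fell (as labelled 0 and 1). Hfe2 (now Hjv), the hemojuvelin co-receptor that drives hepcidin, stood at -3.42, -2.36 and -2.05 against 1.56 to 2.37 (median 1.95) (-4.56 ± 0.62, limma adjusted p = 2.39e-06; as labelled -2.91, 0.0498). Slc40a1, the iron exporter ferroportin, fell by 2.73 (adjusted p = 0.0217), Bmp6, the endothelial signal for hepcidin, fell by 2.15 (0.000186), and Slc39a14, the importer ZIP14, rose by 2.54 ± 0.59 (0.00154). The call of Slc40a1 was lost without KO LPS 6 h replicate 3 (-2.57, adjusted p = 0.0818) or replicate 4 (-2.60, 0.0742). Of 27 complement genes 6 rose and 0 fell, with small changes in C2 (1.66 ± 0.32), Cfb (1.44 ± 0.20) and Mbl1 (1.39 ± 0.27), and none was called as labelled, where the list's median was 0.23. C3 was not called by its brightest probe (0.47, adjusted p = 0.227), and its other probe gave 1.52. Of 28 coagulation and fibrinolysis genes 6 rose (as labelled 3). Plaur, the urokinase receptor, rose by 5.41 ± 0.63, Thbs1, thrombospondin 1, at least 14.0-fold and Procr, the endothelial protein C receptor, by 4.28 ± 0.39, while prothrombin (F2; 0.46, adjusted p = 0.158) was not called.

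Leukocyte markers moved with these gene groups. Of 22 neutrophil markers 18 rose and 0 fell (median 4.67; as labelled 13, median 2.88). The list's median level ran from -0.24 to 0.56 over the 3 LPS arrays and from -5.35 to -4.52 over the 5 saline arrays. S100a8, a subunit of the neutrophil protein calprotectin, stood at 4.81, 4.17 and 3.68 against -3.45 to -2.25 (median -3.0) (7.17 ± 0.48, limma adjusted p = 5.16e-11; as labelled 4.64, 0.045; in wild type 4.67, difference adjusted p = 0.115). The granule proteins Ngp and Camp were at least 69.8-fold and at least 37.4-fold higher, with 0 of 5 saline arrays well above background for both, while the G-CSF receptor Csf3r was not called (0.84, adjusted p = 0.332). The part of these cells in the changes of chemokine, cytokine and macrophage genes was not tested. Of 14 monocyte markers 10 rose (as labelled 4), with the C-type lectins Clec4e (at least 41.3-fold) and Clec4d (5.37), whereas lysozyme (Lyz2) was not called (-0.43, adjusted p = 0.612).

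Kupffer cell markers were mixed, 3 of 18 higher and 2 lower (median -0.59; as labelled none was called, median -0.46). The scavenger receptor Marco stood at 5.26, 6.0 and 5.66 against 0.98 to 2.74 (median 2.51) (3.51 ± 0.61, limma adjusted p = 5.72e-05), Spic rose by 3.78 ± 0.65, the complement receptor Vsig4 fell by 2.07 (adjusted p = 0.0221), and Cd5l was not called (-1.37, adjusted p = 0.0996). The call of Vsig4 was lost without KO LPS 6 h replicate 3 (-1.88, adjusted p = 0.0947) or replicate 4 (-1.99, 0.0713). Of 18 T and NK cell markers 7 rose and 2 fell (as labelled 0 called), with the cytotoxic granule genes Gzmb (4.35 ± 0.50) and Prf1 (2.16 ± 0.51) higher, Thy1 lower (-2.05) and Cd3e, the CD3 chain itself, not called (0.44, adjusted p = 0.599). B cell markers gave 2 falls of 10 (Cd79b -2.01, Bank1 -1.69). Antigen presentation split by class. MHC class I and immunoproteasome genes rose, 15 of 17 (median 1.54; as labelled 1), with the peptide transporter Tap1 at 3.53 ± 0.48 and the proteasome subunit Psmb10 at 2.75 ± 0.38. Of 11 class II and co-stimulation genes 3 rose, namely Cd86 (2.84, and 0.74 at its other probe), Cd80 (at least 2.15-fold) and Cd83 (2.56), and 5 fell, while none was called as labelled (median -0.89). H2-Aa, a class II alpha chain, stood at -1.59, -1.40 and -0.89 against -0.87 to 0.99 (median 0.58) (-1.65 ± 0.54, adjusted p = 0.0222), with -1.03 in the library labelled KO LPS 6 h replicate 1 and 0.09 in the library labelled KO saline replicate 1. Its values did not overlap between the 4 LPS and the 6 saline arrays as labelled either, with -0.89 the highest LPS value and -0.87 the lowest saline value, and its change in wild type was 0.35 (difference adjusted p = 0.322). The H2-Aa call was lost without KO saline replicate 2 (-1.49, adjusted p = 0.0537), KO LPS 6 h replicate 2 (-1.50, 0.0853) or replicate 3 (-1.60, 0.0742). In wild type the class II list had 3 rises, 0 falls and a median of 0.42, and 0 of its genes were called for the difference between genotypes.

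Genes of resting sinusoidal endothelium fell and genes of activated endothelium rose. Of 25 sinusoidal identity genes 14 fell and 3 rose (median -1.69), with none called as labelled (median -0.96). Kdr, the VEGF receptor of endothelium, stood at -3.80, -2.26 and -1.51 in the 3 LPS arrays and 1.13 to 2.26 (median 1.85) in the 5 saline arrays, which did not overlap (-4.28 ± 0.79, limma adjusted p = 0.000133). As labelled Kdr changed by -2.46 (adjusted p = 0.12), with 2.19 in the library labelled KO LPS 6 h replicate 1 and -2.14 in the library labelled KO saline replicate 1. The transcription factor Sox18 (-4.75) and the central-vein ligand Wnt2 (-4.60) also fell, and Aqp1 was not called (-0.47, adjusted p = 0.495). Of 19 activation genes 13 rose and 1 fell (median 3.17; as labelled 5, median 1.89), with the leukocyte-rolling selectins Sele (at least 12.6-fold, 0 of 5 saline arrays well above background) and Selp (4.60 ± 0.48). The activation list includes Lcn2, Ch25h and Fas, which are also counted in lists of other cells. Stellate cell and matrix genes gave 2 rises and 4 falls of 20. Mmp13, a collagenase, stood at 1.58, 2.85 and 2.48 against -7.12 to -4.44 (median -6.26), at least 119.0-fold higher (adjusted p = 6.2e-09; as labelled 5.33, 0.0451), and Lrat, which stores retinol in stellate cells, fell by 2.89 (adjusted p = 0.00612). Erythroid markers had 3 rises of 6 at small size (Hba-a1 1.64 ± 0.47, adjusted p = 0.00901), none as labelled and none in wild type. Of 5 tested lung epithelial markers 2 rose, Sftpd (2.51 ± 0.67) and Sftpa1 (2.12 ± 0.58), collectins that bind microbes, and the pancreatic acinar list had no call in either direction. Without KO LPS 6 h replicate 3, Hba-a1 (1.26, adjusted p = 0.095) and Sftpa1 (1.68, 0.0666) were not called.

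Lipid synthesis genes fell. Of 21 fatty acid synthesis genes 14 fell and 0 rose (median -1.47), and as labelled 1 fell (median -0.92). Elovl3, an elongase of very long fatty acids, stood at -0.63, -0.82 and 0.60 in the 3 LPS arrays and 3.44 to 6.09 (median 5.44) in the 5 saline arrays. It was 34.9-fold lower (limma adjusted p = 9e-06; as labelled -3.56, 0.045). The acetyl-CoA carboxylase Acaca (-2.23 ± 0.43), the desaturase Scd2 (-3.35 ± 0.51), the acyltransferase Gpam (-2.56 ± 0.45) and the elongase Elovl5 (-2.19 ± 0.30) fell too, and Dgat2 was not called (-0.09, adjusted p = 0.898). The other Acaca probes gave -2.93 to -0.42. Of 26 cholesterol synthesis genes 11 fell and 1 rose (median -1.12; as labelled none was called, median -0.48). Hmgcs1, the HMG-CoA synthase of this pathway, stood at 4.13, 4.01 and 5.21 against 5.90 to 7.34 (median 6.18), with 6.49 in the library labelled KO LPS 6 h replicate 1 and 3.46, the lowest of all 10, in the library labelled KO saline replicate 1. The change of Hmgcs1 was -2.0 ± 0.53 (adjusted p = 0.00444) and as labelled -0.99 (adjusted p = 0.351). Its promoter holds the letters of the sterol regulatory element, TCACNCCAC, 137 bases before the start (chr13:119690204-119690232, plus strand, GRCm38.p6):
Hmgcs1: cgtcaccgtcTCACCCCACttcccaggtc
These letters were found in 152 of 12392 promoters (1.23%), in 28 of 2081 of lower genes (1.35%) and in 1 of 18 promoters of the cholesterol list. The SREBP regulator Insig1 fell by 1.66 (adjusted p = 0.000894) and Sc5d by 1.47 (0.00313; -3.70 at its other probe).

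Some genes of lipid storage, fasting and bile acid synthesis fell. Of 21 lipid droplet and lipolysis genes 6 fell and 2 rose, among the falls G0s2, the inhibitor of the lipase ATGL (-4.36 ± 0.77, limma adjusted p = 7.2e-05; as labelled -3.01, 0.048). Of 26 fatty acid oxidation genes 4 fell and 0 rose, so falls were no more frequent than among all genes (16.4%), and none was called as labelled. Among the falls was the peroxisomal acyl-CoA thioesterase Acot4 (-1.56, adjusted p = 0.00403). Of 16 bile acid synthesis genes 5 fell and 2 rose, and none was called as labelled. Cyp7a1, the hydroxylase that limits the rate of bile acid synthesis (probe at chr4:6193456-6193515, mm9), stood at -7.29, -3.53 and -1.22 in the 3 LPS arrays and 0.51 to 2.57 (median 2.40) in the 5 saline arrays. The LPS arrays were widely spread but lay below all 5 saline arrays (-5.71 ± 1.31, adjusted p = 0.00135; as labelled -3.38, 0.148), and the other Cyp7a1 probe gave -2.78. Cyp8b1, the sterol 12-hydroxylase, fell by 2.65 (adjusted p = 0.000266) and the transporter Abca1 rose by 2.46 ± 0.34 (2.53e-06). Among drug-metabolising genes there were 2 rises and 4 falls of 32 cytochromes P450 of families 1 to 3 and their partners, and 1 and 1 of 28 phase II enzymes. Cyp1a1 was at least 3.16-fold lower, and none of the 3 LPS arrays measured it well above background, and Nnmt, nicotinamide N-methyltransferase, rose by 2.39 ± 0.58.

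Glucose and amino acid genes moved in both directions. Of 24 genes of gluconeogenesis and glucose handling 6 rose and 2 fell (as labelled 1 and 1). G6pc, the glucose-6-phosphatase that releases glucose (probe at chr11:101238947-101239006, mm9), stood at 0.85, 0.43 and 1.65 against 4.87 to 6.61 (median 5.98), 29.3-fold lower (limma adjusted p = 2.5e-05; as labelled -3.56, 0.045). At 3.67, the library labelled KO LPS 6 h replicate 1 lay between the groups, and the library labelled KO saline replicate 1 at 2.02. The glycolytic genes Pfkfb3 (5.84 ± 0.68) and Hk2 (4.10 ± 0.54) rose. Of 34 genes of the urea cycle and amino acid metabolism 6 rose and 2 fell, with the transporter Slc38a2 (3.01 ± 0.68) and the serine dehydratase Sds (2.41 ± 0.56) higher. Other Slc38a2 probes gave 2.73, 1.15 and 1.0, so the size of its rise depends on the probe. Hepatocyte identity genes gave 4 rises and 5 falls of 25, with the pioneer factor Foxa1 lower (-2.81 ± 0.58) and Nr5a2 higher (2.23 ± 0.54).

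Stress programmes rose in part. Of 26 unfolded protein and integrated stress genes 11 rose and 3 fell (median 0.77; as labelled none was called), and in wild type 6 rose and 7 fell (median -0.07). Gdf15, a stress hormone that lowers appetite, stood at 3.94, 5.65 and 4.10 in the 3 LPS arrays and -0.31 to 0.56 (median 0.32) in the 5 saline arrays (4.33 ± 0.66, limma adjusted p = 1.05e-05; as labelled 2.37, 0.118), with 1.55 in wild type and an adjusted p of 0.234 for the difference. The glutathione-degrading Chac1 rose by 3.85 ± 0.82 and the heme oxygenase Hmox1 by 3.03 ± 0.36. Of 34 p53 target and apoptosis genes 20 rose and 3 fell (as labelled 3 rose), led by Gadd45b (5.89 ± 0.66), the antiproliferative Btg2 (5.43 ± 0.65), Bcl2a1b (4.48 ± 0.43), a member of a family of near-identical copies, and Trp53inp1 (4.23 ± 0.86). Of 21 hypoxia and angiogenesis genes 9 rose, with the mTORC1 inhibitor Ddit4 (4.53 ± 0.60), adrenomedullin (Adm; 4.33 ± 0.76) and Vegfa (1.14 ± 0.30, adjusted p = 0.00484). Of 21 clock genes 5 rose and 3 fell, among the rises Per1 (2.63 ± 0.62) and Nfil3 (3.24 ± 0.75); the sources used here do not give the time of day at collection.

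Genes of the E2F family and of the cell cycle were examined because E2f1 is missing in these mice. Of 18 genes of the E2F and retinoblastoma families 2 rose and 6 fell (median -0.43), none was called as labelled, and in wild type 3 rose and 5 fell. The atypical repressor E2f8 rose by 2.83 ± 0.47 (limma adjusted p = 3.73e-05) and the pocket protein p107 (Rbl1) by 2.19 ± 0.51 (adjusted p = 0.00145), while p130 (Rbl2) fell by 1.47 (0.00457; -1.19 and 0.0527 without KO LPS 6 h replicate 3) and the repressor E2f6 by 1.29 (0.0119). The other E2f6 probe gave -0.39. E2f3 was not called by its brightest probe (0.09, adjusted p = 0.907), and its other probes gave 0.33 to 0.85. The E2F letters TTTGGCGC or TTTCGCGC, on either strand, stand 18 bases before the start of Rbl1 (chr2:157204535-157204562, minus strand, GRCm38.p6):
Rbl1: agaaggcgatTTTCGCGCgctttgtcgc
They were found in 156 of 12392 promoters (1.26%), in 21 of 1748 of higher genes (1.2%), in 24 of 2081 of lower genes (1.15%) and in 6 of 33 promoters of the G1/S list (18.2%), which was drawn up as genes with E2F sites. Of 43 G1/S genes 4 rose and 12 fell (median -0.40; as labelled 0 and 1), in wild type 5 and 11. The checkpoint kinase Chek1 (2.88 ± 0.59) rose, and Brca1 (-2.49 ± 0.65) fell. Of 26 G2/M genes 1 rose (Tpx2, 2.19 ± 0.62) and 6 fell, among them the centromere histone Cenpa (-2.15 ± 0.51); in wild type 2 rose and 7 fell. None of the E2F family, G1/S or G2/M genes was called for the difference between genotypes in either fit. Of 14 growth hormone and IGF genes 3 rose, with Igfbp1 at 4.37 ± 0.76 and Cish at 2.96 ± 0.71, and Igf1 was not called (0.30, adjusted p = 0.267).

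Outside the lists, the genes with the largest changes among those called in both fits included 1 rise and several falls not yet described. Slc10a6, a transporter of sulfated steroids, stood at 4.32, 4.62 and 4.68 in the 3 LPS arrays and -6.93 to -3.0 (median -5.15) in the 5 saline arrays, of which 2 were well above background (9.37 ± 1.25, limma adjusted p = 1.74e-06; as labelled 6.35, 0.0451). Sp5, a transcription factor induced by Wnt signalling (probe at chr2:70315688-70315747, mm9), had the largest fall. It stood at -7.54, -6.13 and -5.52 against -0.45 to 0.31 (median 0.03), at least 20.5-fold lower, and none of the 3 LPS arrays measured it well above background (adjusted p = 1.06e-07; as labelled -4.01, 0.0451). Cldn1, a tight junction protein of hepatocytes and bile ducts, stood at -4.49, -5.30 and -3.97 against -0.08 to 1.56 (median 0.66), 36.9-fold lower (adjusted p = 7.86e-10; as labelled -3.21, 0.0451). The potassium channel Kcnk5 (-4.63), Rbmxl2 (at least 7.07-fold lower), Dock8 (-4.36) and the myosin Myo7a (-4.29) fell as well. The second Kcnk5 probe gave -0.53 and the other Dock8 probes -1.39 to 0.53, so neither gene's fall was shared by its probes.

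The knockout and wild-type responses were compared by the interaction of genotype and LPS, which few genes passed. As labelled, 27 of 19204 genes (0.141%) were called, 13 with a higher (0.0677%) and 14 with a lower knockout response (0.0729%). Without the 2 libraries 28 were called (0.146%), 16 with a higher (0.0833%) and 12 with a lower response (0.0625%). At an unadjusted p under 0.05 these were 1691 and 1767 genes. With normexp background correction, an alternative chosen after seeing the data, limma called 0 genes in both fits, and 820 and 611 genes had an unadjusted p under 0.05. Single arrays moved these counts. As labelled, 8 genes were left without WT LPS 6 h replicate 4 and 8 without the library labelled KO LPS 6 h replicate 1. Without the 2 libraries, 4 were left without KO LPS 6 h replicate 2, 15 without replicate 3 and 4 without replicate 4, 15 without KO saline replicate 3 and 5 without replicate 4. The wild-type arrays gave 17, 16 and 60 without WT saline replicates 2, 5 and 6, and 11, 50 and 12 without WT LPS 6 h replicates 1, 2 and 4. The WT saline and KO saline mice were separate, so no control array was shared between the 2 responses. Tbc1d2, a Rab GTPase-activating protein (probe at chr4:46617336-46617395, mm9), stood at -0.47, -0.35 and 0.21 in the 3 LPS arrays and -0.62 to 0.37 (median 0.18) in the 5 saline arrays of the knockout. In wild type it stood at -2.64, -2.14, -1.71 and -1.70 after LPS and at -0.49 to 0.95 after saline, so that only wild type separated the groups by this probe. It was called in both fits: the change was -0.19 in 3 against 5 knockout arrays and -2.44 in wild type, a difference of 2.26 ± 0.42 (limma adjusted p = 0.0206; as labelled 2.32, 0.00923). The same direction was called in both fits for Rab40c (1.28 ± 0.23, adjusted p = 0.0206), Gtlf3b (now Natd1; 1.70 ± 0.31, 0.0206) and the sulfotransferase Chst12 (2.36 ± 0.46, 0.0298). A smaller knockout response was called in both fits for the zinc finger gene C330011K17Rik (now Zfp874a), which changed by -0.26 in the knockout and 4.59 in wild type. Its levels after saline were 0.67 to 1.16 (median 0.81) in the 5 knockout arrays and -6.43 to -4.36 in wild type, and after LPS 1.08, 0.36 and 0.51 in the knockout and -2.74, 0.33, 0.56 and -0.02 in wild type, so that the genotypes differed mainly after saline. In the library labelled KO saline replicate 1 it lay at -3.27, below the other knockout arrays. The difference was -4.85 ± 0.69 (adjusted p = 0.00292; as labelled -4.18, 0.0494). The Notch ligand Dll1 (difference -2.15 ± 0.40, adjusted p = 0.0206) and the TGF-beta binding protein Ltbp1 (-2.85 ± 0.55, 0.0256) were also called in both.

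Other genes were called in 1 fit. Chi3l3 (now Chil3), the chitinase-like protein of alternatively activated macrophages and neutrophils, stood at 3.72, 3.74 and 3.73 in the 3 LPS arrays and -2.93 to -2.04 (median -2.66) in the 5 saline arrays. It rose by 6.33 ± 0.58 in the knockout and by 2.60 in wild type, a difference of 3.73 ± 0.77 (limma adjusted p = 0.0358) without the 2 libraries and of 1.78 (adjusted p = 0.749) with them; it has a near-identical copy that the probe may also read. Svopl rose at least 8.07-fold in the knockout and by 1.48 in wild type (difference 3.62 ± 0.66, adjusted p = 0.0206; as labelled 1.61, 0.748). Sesn2, a stress-induced sestrin, changed by 1.38 in the knockout and -1.34 in wild type (difference 2.72 ± 0.47, adjusted p = 0.0206; as labelled 2.10, 0.169), but its second probe changed by 0.12 in the knockout. Conversely the antiproliferative Tob1 was called as labelled (2.37, adjusted p = 0.0229) and not without the 2 libraries (1.87 ± 0.42, 0.0597), with changes of -1.83 in 3 against 5 knockout arrays and -3.70 in wild type, and so were Zfp296 and the antiviral deaminase Apobec3 (-2.62, 0.0213, and -3.23, 0.0229). The wild-type strain label differs from that of the knockout, so genotype and strain background cannot be told apart in these differences.

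**Figure D5:**
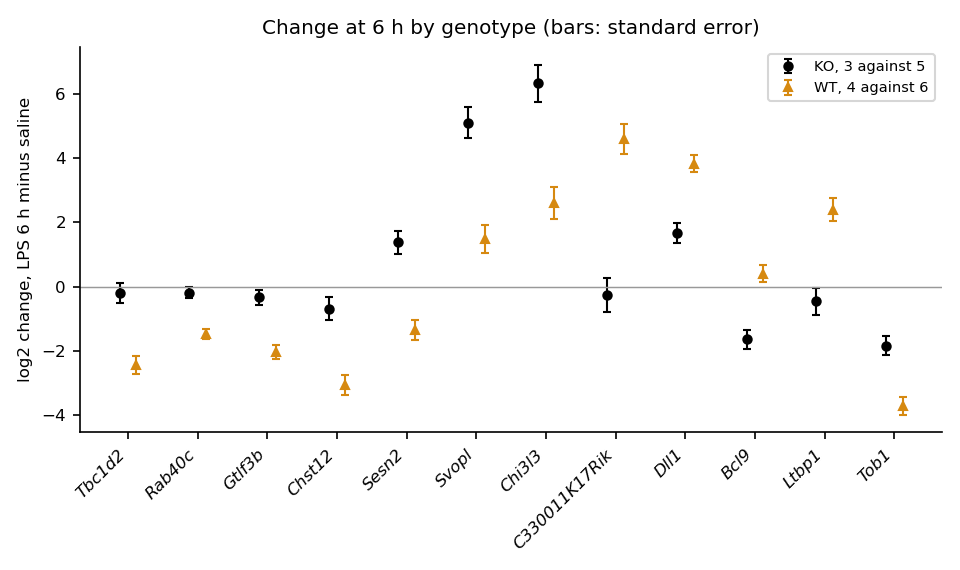
Log2 change 6 h after LPS (y axis, LPS minus saline) of 12 genes (x axis) in 3 against 5 knockout arrays (circles) and 4 against 6 wild-type arrays (triangles), with bars for the standard error of the fit. Tbc1d2 lies at -0.19 in the knockout and -2.44 in wild type, and C330011K17Rik at -0.26 and 4.59.

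Of the listed immune groups, none of the receptor, chemokine, cytokine, interferon or acute-phase genes was called for the difference between genotypes in either fit, which does not show that their responses were equal. For Cxcl10 the difference was -1.49 ± 1.17 and for Tnf 0.25 ± 0.59, for Il6 1.27 ± 0.76, for Ifit1 -0.42 ± 0.92 and for Saa3 1.28 ± 0.96, without the 2 libraries, with adjusted p of 0.752, 0.93, 0.659, 0.924 and 0.733.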

How the data were processed

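RNA of 1 mouse was read on each of 32 one-colour (Cy3) Agilent arrays, and 10 of them form the groups compared. Per the file headers, the authors extracted each array with Agilent Feature Extraction 10.7.1.1 from a design annotated on mm9, and the deposited gProcessedSignal is a background-subtracted, detrended intensity with no scaling between arrays. A processed table of log2 values was also deposited; its columns matched the scanner values of their own arrays best, and the sources used here do not give its normalization, so it served as an alternative.

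From the intensities, log2 values minus each array's 75th percentile were computed, without control spots and outlier-flagged spots (361 values became missing). A probe was kept where 4 or more arrays measured it well above background (28345 of 41174), and the brightest probe stood for each of 19204 gene names. limma 3.58.1 (R 4.3.3; lmFit and eBayes, two-sided) was fitted over 6 groups on all 32 arrays, and on 30 arrays, leaving out replicate 1 of both KO saline and KO LPS 6 h. P-values were adjusted by Benjamini-Hochberg over all genes. Where no array of the dimmer group was well above background, a fold is given as "at least", with the dim group set to its lowest measurable signal. The fit was tested on simulated data with known changes. Symbols follow the array, and 15703 of 19204 names matched a RefSeq symbol. Promoters are RefSeq's, on GRCm38.p6, matched for 12392 tested genes.

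The number of arrays limits the precision. Named genes were E2f1, the 10 largest rises and falls called in both fits with groups of 3 and 5 that did not overlap, up to 4 called members and the brightest uncalled member of each of 53 gene lists, the 6 strongest genotype differences per sign and fit, and a fixed panel (Alb, Saa1, Saa3, Lcn2, Tnf, Il6, Il1b, Cxcl1, Cxcl10, Ifit1, Cyp7a1, G6pc, Hmgcs1, Vegfa); fewer are printed, and some are not reported here. The libraries left out, the members and the lists were chosen with earlier results of these data known. Alternatives were other normalizations, backgrounds, filters, probe rules, fits, batch and replicate blocks, single arrays left out and other thresholds.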

Additional observations from a re-analysis of the deposited data

Results flagged for a closer look

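A value was listed here where its gap to the nearest other array, as a share of the group's range, passed Dixon's 95% limit, which chance passes in about 1 of 20 groups. Over 37 genes with levels in the text and the score, 40 of 114 groups had such an array (35.1%): 26 times the library labelled KO saline replicate 1, 13 times the library labelled KO LPS 6 h replicate 1 and 1 time KO saline replicate 6. Many of these genes were picked for large changes without the 2 libraries, which were left out for their values. The groups also share arrays, since the 6 saline arrays and 5 of them were both counted. The 35.1% is therefore a description and no separate support for leaving the 2 libraries out. On the score along the wild-type response the first of these lay at 0.90 and the second at 0.12. As log2 levels, the highest of the 6 saline arrays was the library labelled KO saline replicate 1 for A2m (4.07), Ccl3 (4.21), Cd14 (6.20), Ch25h (4.15), Chi3l3 (3.73), Cxcl1 (7.10), Cxcl10 (7.76), Gbp5 (3.52), Gdf15 (4.85), Ifit1 (6.45), Il1b (4.39), Il6 (0.99), Irg1 (4.82), Marco (6.09), Mmp13 (1.78), Reg3b (5.48), S100a8 (5.06), Slc10a6 (4.40) and Tnf (0.74). It was the lowest of the 6 for C330011K17Rik (-3.27), Cldn1 (-4.78), Hfe2 (-2.46), Hmgcs1 (3.46), Kdr (-2.14) and Sp5 (-3.64). Lowest of the 4 in the LPS group was the library labelled KO LPS 6 h replicate 1 for Ccl3 (-2.94), Cd14 (2.93), Chi3l3 (0.13), Ifit1 (0.42), Il1b (-1.36), Il6 (-3.93), Irg1 (-1.97), Lcn2 (4.35), Mmp13 (-4.95), Slc10a6 (-1.35), Socs3 (3.92) and Tnf (-5.16). Among the 5 saline arrays left without the library labelled replicate 1, KO saline replicate 6 was lowest for Irg1 (-6.37). The cause of these positions was not tested.

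The change 6 h after LPS differed between genotypes by the limma interaction term for the following genes, given as the log2 change in the knockout minus that in wild type. Called with labels as given and without the 2 libraries, in this order, were Tbc1d2 (2.32 and 2.26), Rab40c (1.34 and 1.28), Gtlf3b (1.87 and 1.70), Chst12 (2.63 and 2.36), Dll1 (-2.78 and -2.15), C330011K17Rik (-4.18 and -4.85) and Ltbp1 (-2.83 and -2.85). Called only with labels as given were Tob1 (2.37), Zfp296 (-2.62) and Apobec3 (-3.23), and called only without the 2 libraries were Chi3l3 (3.73), Sesn2 (2.72) and Svopl (3.62).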

How the results depend on the processing

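Without the 2 libraries, 159 of the 186 named changes were called, and none of the 159 turned sign under an alternative run. Calls were lost for 21 genes with normexp background correction, for 1 gene each with quantile normalization, median centring, the mean over probes and a slide block, for 2 with the deposited table, and for 7 when a single array was left out. Within scan days 1 and 2, which hold 1 or 2 LPS arrays each, 30 and 29 calls were lost. The 5596 called genes became 2649 with normexp, 8495 with array weights, 2573 within scan day 1 and 3388 within scan day 2, and 4238 to 5293 without single arrays. Of 53 list medians, 12 (those of lists with medians near 0) changed sign between scalings.

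With labels as given, the 499 called genes became 280 with quantile normalization, 0 with normexp, 2 with no filter, 0 with only the groups compared, 8039 with array weights, 0 with a slide block, 2573, 3388 and 0 within scan days 1, 2 and 3, 1 at an adjusted p under 0.01, 0 to 3895 without single arrays, and 5596 without the 2 libraries (all limma). An unadjusted p under 0.05 was found for 4117 genes as labelled, and where none was called for 2463 with normexp, 2676 with only the groups compared, 3914 with a slide block, 198 within scan day 3, and 2973 and 2417 without KO LPS 6 h replicates 2 and 3. Array weights are set from the data and give little weight to arrays that stand apart. Scan day 3 held the libraries labelled KO LPS 6 h replicate 1 and KO saline replicate 1 with KO saline replicate 4, and there 55 of the 62 named changes called as labelled turned sign (log2, LPS minus saline). They were negative in place of positive for Slc10a6 -1.62, Irg1 -2.35, Ccl3 -2.47, Ch25h -0.66, Mmp13 -3.62, Ngp -0.44, Ifit2 -3.10, Cd14 -0.15, Tlr2 -2.69, Tnfaip3 -2.59, Irak3 -1.77, Cxcl5 -0.19, Ccl2 -2.69, Ccl4 -2.75, Ccl5 -1.91, Il1rn -1.33, Rsad2 -2.95, Ifit1 -2.83, Gbp5 -2.33, Gbp2 -2.12, Gbp3 -1.59, Socs1 -1.69, Socs3 -0.80, Cebpd -1.22, Ier3 -1.26, Maff -0.33, Egr2 -1.53, Dusp2 -1.92, Hdc -1.12, Il1r2 -0.49, Casp4 -1.12, Cd40 -2.64, Tnfrsf9 -0.36, Plaur -1.44, Procr -1.43, Camp -2.40, S100a8 -1.52, Chi3l3 -0.40, Clec4e -2.33, Clec4d -1.52, Selp -1.26, Pfkfb3 -1.06, Svopl -2.19 and Il6 -1.74. They were positive in place of negative for Sp5 2.71, Cldn1 1.41, Elovl3 0.20, Kcnk5 1.57, Hfe2 1.34, Rbmxl2 1.64, Dock8 2.04, G0s2 0.81, Myo7a 1.46, Scd2 0.26 and Tob1 0.031. No other alternative turned the sign of a called change, and the cause of these differences was not tested.

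For the genotype difference, the 27 genes called with labels as given became 12 with the deposited table, 17 with no filter, 5 with a slide block, 42 with a scan day block and 8 to 29 without single arrays. The 28 without the 2 libraries became 51 with quantile normalization, 48 with median centring, 5 with no filter, 53 with a stricter filter, 163 with only the groups compared, 13 with a slide block and 4 to 60 without single arrays. With normexp, an alternative chosen after seeing the data, both counts were 0 (limma; 820 and 611 genes at an unadjusted p under 0.05).

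Same-numbered knockout LPS and saline arrays did not deviate together. Without the 2 libraries, the correlations of their deviations from the group means were -0.40, -0.22 and -0.06 for replicates 2 to 4. As labelled they were -0.69, -0.49, -0.31 and -0.25 for replicates 1 to 4, but there the 2 libraries shift both group means. The numbers were not taken as pairs. With the replicate number as a block, 1 gene was called as labelled, 5384 without the 2 libraries, and 21 and 19 for the genotype difference. Signal over background sets a floor under many saline levels, so that folds given as "at least" are bounds, and saline mice were collected later than the LPS mice in both genotypes.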
